A study of Mus musculus with 16 samples.

Results

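Neuron cultures given the peptide NP24 were set directly against cultures given Tβ4 (thymosin beta 4) over all genes measured, in 8 of the 16 libraries of the study, 4 libraries for each peptide. The 8 libraries are all those labelled NP24 or Tβ4. This pair of groups, and the gene lists and gene families below, were chosen with earlier results of these data known. Libraries of the other groups, the DPBS controls and the Tβ10 cultures, entered no test and are given only as levels beside the pair. Each culture, controls included, consisted of primary neurons grown from brains of C57BL/6 mice at P0, the day of birth. One group was added with NP24 and the other with Tβ4, and the controls received DPBS, a buffered saline. The study asked whether peptides attributed to the subcommissural organ, a gland of the brain that secretes into the cerebrospinal fluid, act on developing neurons. Dose and time of exposure are not given in the labels, NP24 is known here only by that name, and whether the 4 libraries of a group came from separate cultures is not stated in them. Each p-value below therefore measures the spread between these libraries, which may be technical.

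Tβ4, the product of Tmsb4x, is a β-thymosin, one of a family of small proteins that bind monomeric actin and keep it out of filaments. The pool of free actin monomers controls the entry of MRTF cofactors into the nucleus, where they act with the factor SRF on genes of the cytoskeleton and of cell attachment. Immediate early genes such as Npas4, Egr1 and Fos are transcribed soon after synaptic activity or growth factor stimulation, and cultures of newborn brain can hold glia, microglia, fibroblasts and vessel cells among the neurons.

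The labelled cell type was present in every library. Map2, a microtubule protein of dendrites, ranged from 25429 to 35936 normalized counts, which are reads divided by the authors' size factor for the library, and Rbfox3, the neuronal nuclear antigen, from 3123 to 7216. Tubb3, the neuronal tubulin, averaged 7597 ± 1359 with NP24 and 5064 ± 1649 with Tβ4 (SD, n = 4), and Gm20388 overlaps all of its gene body. Oligodendrocyte and astrocyte markers were present too, with Mbp at 2764 to 5154 and Gfap at 325 to 761 normalized counts. Some defining markers of other cells were at or near 0. Cldn5 of endothelium had 0 reads over the NP24 libraries and 6 over the Tβ4 libraries, the globin Hbb-bs 0 and 38, microglial Tmem119 3 and 21, the fibroblast proteoglycan Lum 1 and 19, and the choroid plexus gene Ttr 11 and 11.

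The 4 NP24 libraries resembled each other more than the 4 Tβ4 libraries did. Reads in genes ranged from 17822459 to 32631337 per library and did not separate the groups (exact permutation p = 0.743, two-sided). Mitochondrial ribosomal RNA, mt-Rnr1 with mt-Rnr2, took 7.15 ± 1.03% of reads with NP24 and 15.3 ± 6.71% with Tβ4 (SD, n = 4), with 24.3% in Tβ4 library 1 and 8.25% in Tβ4 library 2. All NP24 libraries lay below all Tβ4 libraries, and the exact two-sided permutation p of 0.0286, the smallest that 70 arrangements allow, became 0.0857 after Benjamini-Hochberg adjustment over 3 library measures. Tβ4 library 1 also had the most detected genes, 38072 against 29325 to 32652 in the other libraries. On the first principal component, 28.9% of the variance, the NP24 libraries lay between -46.5 and -27.8, Tβ4 library 2 at 0.67, Tβ4 libraries 3 and 4 at 23.4 and 17.3, and Tβ4 library 1 at 108.5. Tβ4 library 2 differed in another way: its summed level of 45 cytosolic ribosomal protein genes was 26290 normalized counts against 36260 to 65485 in the other 7 libraries, and that of 24 glutamate and GABA receptor and scaffold genes was 226205 against 110216 to 177549. The part of these library differences in the results below was not tested.

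Of 22080 genes tested, 98 were lower and 11 higher with NP24 than with Tβ4 at an adjusted p under 0.05 (limma on log2 of the normalized count plus 1, Benjamini-Hochberg adjustment over all genes tested), 0.494% in all, 0.444% lower and 0.0498% higher. All differences below are on that log2 scale, NP24 minus Tβ4, and a lower gene can be read as higher with Tβ4. Among the 109 called genes, 81 differed by more than 2-fold, 77 of them lower with NP24, and 102 were protein-coding. The lower genes included matrix and vessel wall genes such as Col3a1 and Rgs5, macrophage genes such as Ctss, immediate early genes such as Npas4 and the cystine carrier Slc7a11, and the higher genes included Ajap1 and Maf. The DPBS controls, which were not tested here, had a mean level between the groups for 92 of the 98 lower and 11 of the 11 higher genes, and above both groups for the other 6. These genes were picked for a wide gap between NP24 and Tβ4, which favours a control mean inside that gap. The same share over all genes tested was not counted, so no direction from the controls can be read from these counts. The median difference over all genes tested was 0.01. At an unadjusted limma p under 0.05 there were 2716 of the 22080 genes, 1675 lower and 1041 higher. DESeq2, another fit of the same 8 libraries, called 581 lower and 134 higher. Counts of these kinds in the lists below are to be read beside those totals. Of the 98 lower genes, 9 had all 4 NP24 libraries below the minimum of 10 normalized counts and so passed the filter only through their Tβ4 levels.

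**Figure D1:**
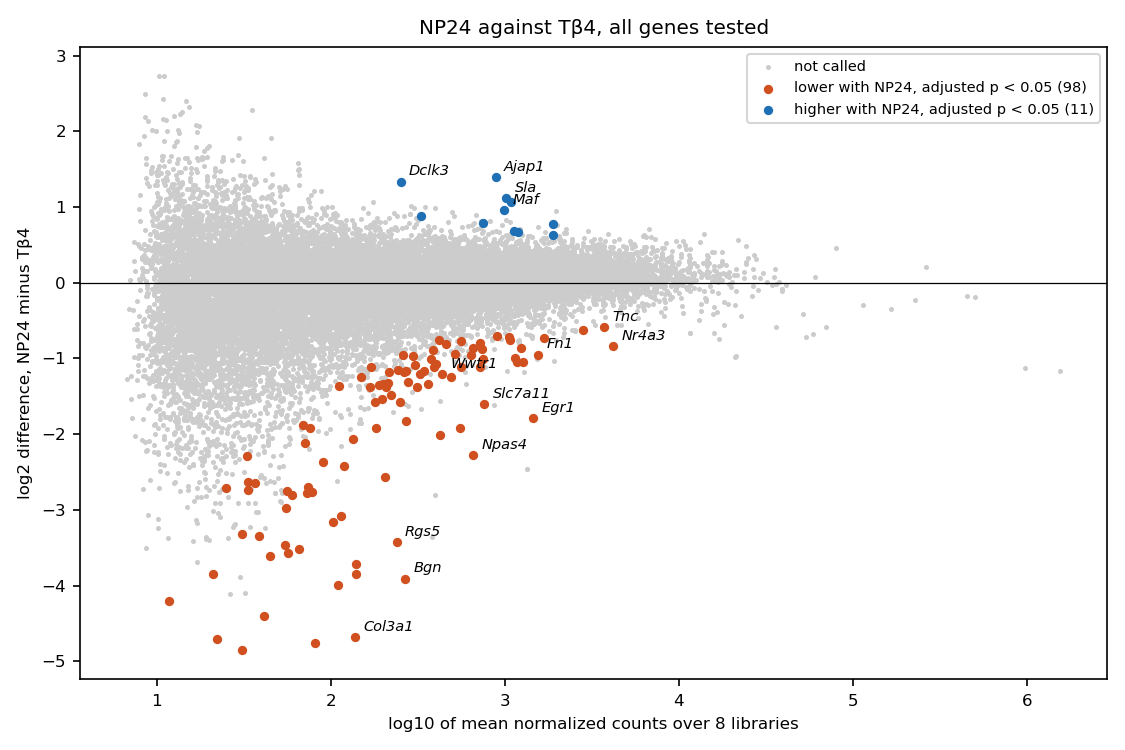
Each point is 1 of the 22080 genes tested, by the log10 of its mean normalized counts over the 8 libraries (horizontal) and its log2 difference, NP24 minus Tβ4 (vertical). The 98 lower genes in orange reach below -4, while the 11 higher genes in blue lie between 0.64 and 1.39.

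How many genes were called depended on which Tβ4 libraries were in the fit. The minimum of 4 libraries was kept with a library left out, so those fits tested fewer genes. List medians from them can therefore rest on fewer members. Without Tβ4 library 1, limma called 6 genes (0.028% of those tested), all lower, and without Tβ4 library 4 it called 5, all lower (0.0232%). Without Tβ4 library 2 it called 1161 genes (5.42%), 599 lower (2.8%) and 562 higher (2.62%), which held 100 of the 109. Leaving out an NP24 library left between 10 and 27 calls, the fewest without NP24 library 3, and without Tβ4 library 3 there were 129. In every gene list below, leaving out Tβ4 library 4 gave as many calls as leaving out Tβ4 library 1. A drop in a list's calls without library 1 is therefore not particular to that library. Tβ4 library 1 was the highest of its group for 80 of the 98 lower genes, and Tβ4 library 2 the lowest for 44. The groups' libraries did not overlap for all 109 called genes, and for 1719 (7.79%) of all genes tested, 1032 lower (4.67%) and 687 higher (3.11%). Col3a1, Igfbp7, Npas4, Rgs5 and Slc7a11 passed in all 8 fits that left out 1 library, Wwtr1 in 7, and Ajap1, Bgn and Col1a1 in 6, while 5 of the 109 passed in 0.

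**Figure D2:**
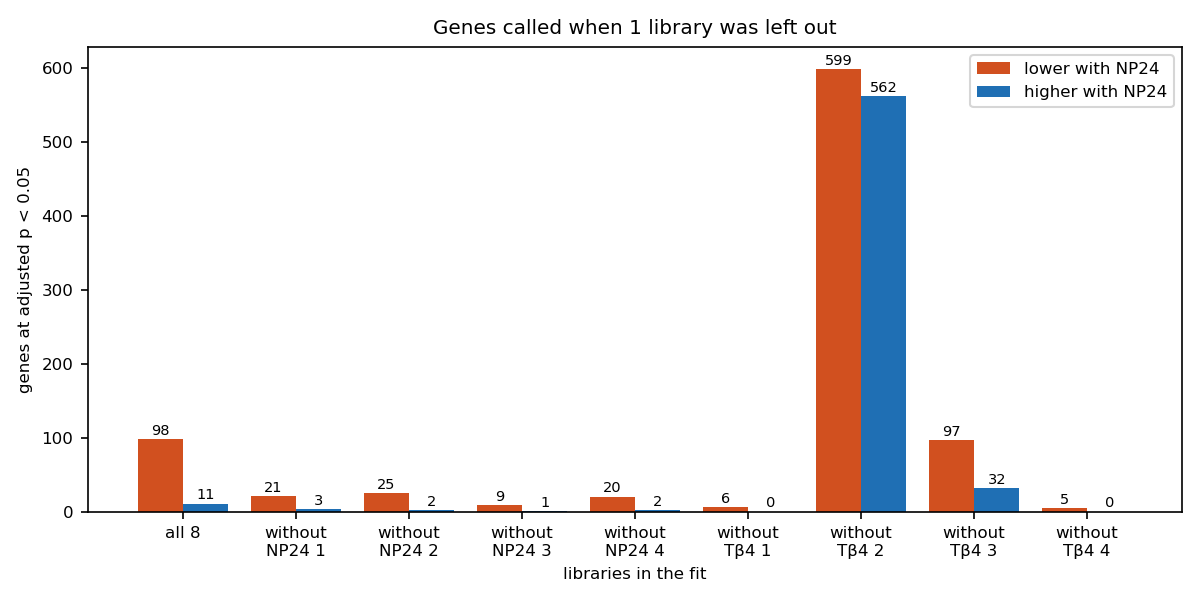
Bars count the genes at adjusted p under 0.05 (limma) with all 8 libraries and with each library left out in turn, lower with NP24 in orange and higher in blue. The count falls to 6 without Tβ4 library 1 and to 5 without Tβ4 library 4, and reaches 1161 without Tβ4 library 2.

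Npas4, a transcription factor that neurons make in response to calcium entry through active synapses, had the smallest adjusted p of all genes. Its level was 208, 276, 248 and 167 normalized counts in NP24 libraries 1 to 4 and 1362, 886, 1092 and 1004 in Tβ4 libraries 1 to 4. Every NP24 library lay far below every Tβ4 library, and the lowest was NP24 library 4. The difference was -2.27 ± 0.19 (SE, 95% interval -2.68 to -1.87, limma adjusted p = 0.000403), which is 4.83-fold higher with Tβ4. The controls lay between, at 695 ± 151 (SD, n = 4), and the Tβ10 cultures at 252 ± 27.8.

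Npas4 was 1 of 4 immediate early genes called lower, out of 20 in a list of such genes, all of them tested, with 0 higher. The median difference of the list was -0.69 and 18 of 20 differences were negative. Egr1, a zinc finger factor of the first response to growth factors and activity, had 768, 844, 672 and 362 normalized counts with NP24 and 2927, 1455, 2491 and 2113 with Tβ4. The groups did not overlap, with NP24 library 4 lowest and Tβ4 library 2 nearest to the NP24 cultures. Its difference was -1.79 ± 0.26 (limma adjusted p = 0.014). Fos, a component of the AP-1 factor, stood at 220 to 331 with NP24 and at 1074, 486, 723 and 505 with Tβ4, a difference of -1.25 ± 0.24 (adjusted p = 0.0451). Nr4a3, an orphan nuclear receptor of the same early response, stood at 2372 to 3497 with NP24 and at 4870, 7038, 4973 and 4685 with Tβ4, a difference of -0.84 ± 0.16 (adjusted p = 0.0475). Here Tβ4 library 2 was the highest and not the lowest of its group. Fos and Nr4a3 kept their call in 1 of the 8 fits that left out a library, and Egr1 in 5; edgeR did not call Nr4a3 (adjusted p = 0.0576). Of the members that were not called, Fosb differed by -1.20 (adjusted p = 0.194) and Ier2 by -1.27 (adjusted p = 0.188). Relatives of Egr1 were not called either: Egr2 differed by -0.62, Egr3 by -0.40 and Egr4 by 0.81 (limma adjusted p = 0.544, 0.625 and 0.599). Nr4a1 and Nr4a2, relatives of Nr4a3, differed by -0.67 and -0.76 (limma adjusted p = 0.19 and 0.197). Without Tβ4 library 2 the list had 11 members lower, and without Tβ4 library 1, or without Tβ4 library 4, it had 1. Its summed level was 9557 to 13250 normalized counts with NP24, 17212 to 21980 with Tβ4 and 12777 to 16047 in the controls.

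The 250 bases before the start sites of Npas4, Fos and Nr4a3 are shown because these genes were called in the same direction and because TGACG, the core of the cyclic AMP response element (CRE) that CREB binds, lies in each. The windows are RefSeq promoters on GRCm38.p6, written 5′ to 3′ on the gene's strand. The Npas4 window is chr19:4989972-4990221 (minus strand), the Fos window chr12:85473640-85473889 (plus strand) and the Nr4a3 window chr4:48045055-48045304 (plus strand). Capitals mark matches on either strand to this CRE core, to the TEAD site GGAATG and to the antioxidant response element core TGACNNNGC, which in Nr4a3 overlaps a CRE core.
Npas4: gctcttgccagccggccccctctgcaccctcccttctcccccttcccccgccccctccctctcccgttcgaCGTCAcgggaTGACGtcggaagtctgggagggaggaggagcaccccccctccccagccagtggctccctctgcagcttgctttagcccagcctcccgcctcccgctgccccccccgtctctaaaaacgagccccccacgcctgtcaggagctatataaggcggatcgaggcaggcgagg
Fos: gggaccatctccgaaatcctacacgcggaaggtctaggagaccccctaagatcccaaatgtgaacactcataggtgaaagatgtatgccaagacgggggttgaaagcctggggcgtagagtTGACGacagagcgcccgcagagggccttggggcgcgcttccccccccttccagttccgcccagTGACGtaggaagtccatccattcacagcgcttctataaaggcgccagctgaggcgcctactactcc
Nr4a3: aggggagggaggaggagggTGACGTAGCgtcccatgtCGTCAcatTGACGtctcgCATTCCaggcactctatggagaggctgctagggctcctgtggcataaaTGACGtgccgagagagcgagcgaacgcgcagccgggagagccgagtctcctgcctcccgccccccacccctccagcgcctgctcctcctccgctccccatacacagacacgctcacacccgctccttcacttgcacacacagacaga
Npas4 and Fos held 2 CRE cores each and Nr4a3 4. Counted over genes with at least 1 RefSeq window of this length, a CRE core occurs in 19.8% of 27018 genes and in 14 of the 77 lower genes whose symbol had a window (18.2%), a share near that of all genes. The full palindrome TGACGTCA lies in 1.77% of genes and in 0 of those 77. These are letter matches and not measured binding.

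Bdnf, the neurotrophin gene whose transcription follows activity, was also lower with NP24. It had 67.6, 125, 182 and 101 normalized counts with NP24 and 257, 455, 323 and 259 with Tβ4. The groups did not overlap, and the difference was -1.49 ± 0.29 (limma adjusted p = 0.0477), a call kept in 1 of the 8 fits with a library left out and lost with edgeR (adjusted p = 0.0576). It was the only called gene among 13 tested of a list of 16 on neurotrophin signalling, whose median was -0.19. That median was -0.12 over 12 tested genes without Tβ4 library 1 and likewise without Tβ4 library 2. Among 13 genes of MAPK feedback, which restrain growth factor signalling, limma and edgeR called 0 and DESeq2 4 lower, and 6 were lower at an unadjusted limma p under 0.05, with a median of -0.38. Spry2, an inhibitor of receptor tyrosine kinase signalling, stood at 387 to 417 with NP24 and at 491 to 864 with Tβ4 (adjusted p = 0.0624).

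**Figure D3:**
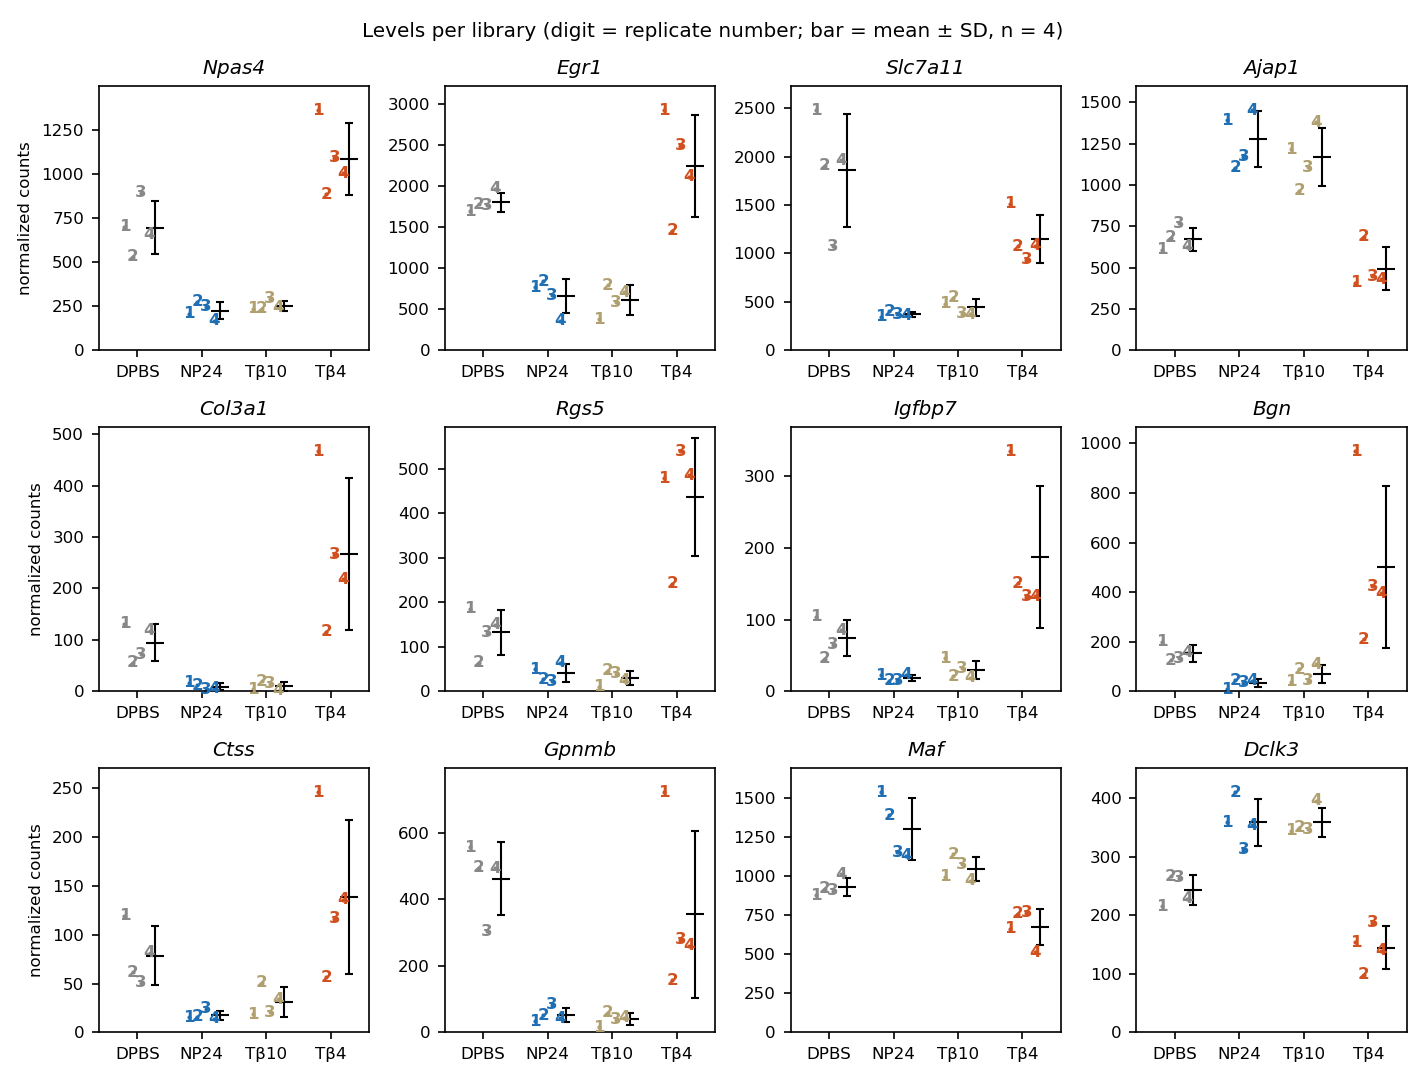
Normalized counts (vertical, linear from 0) of 12 genes in each library, with the replicate number as the point and the mean ± SD (n = 4) as a bar, for the DPBS controls, NP24, Tβ10 and Tβ4. NP24 and Tβ4 libraries do not overlap in any of the 12 panels; in Npas4 the NP24 cultures reach 276 and the Tβ4 cultures start at 886.

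Slc7a11, the cystine and glutamate exchanger that supplies cysteine for glutathione, had 347, 403, 372 and 364 normalized counts in NP24 libraries 1 to 4. In Tβ4 libraries 1 to 4 it had 1513, 1075, 935 and 1078. The NP24 libraries lay close together and far below the lowest Tβ4 library. The difference was -1.61 ± 0.16 (SE, 95% interval -1.95 to -1.27, limma adjusted p = 0.00156), or 3.04-fold. The controls, at 1856 ± 581 (SD, n = 4), stood above both peptides for this gene.

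The promoter of Slc7a11 is shown for its paired matches to TGATGNAA, the composite element of ATF4 and C/EBP factors, which are in capitals. The window is chr3:50443614-50443863 (minus strand, RefSeq, GRCm38.p6), 250 bases before the start site, and the matches lie at -66 to -59 and, on the opposite strand, at -47 to -40 from that site.
Slc7a11: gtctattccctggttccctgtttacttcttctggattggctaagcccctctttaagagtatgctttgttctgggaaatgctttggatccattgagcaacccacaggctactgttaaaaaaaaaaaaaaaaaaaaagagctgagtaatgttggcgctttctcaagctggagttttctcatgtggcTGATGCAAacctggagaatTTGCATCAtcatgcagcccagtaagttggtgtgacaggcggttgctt
This element is found in 3.90% of the 27018 genes with a window and in 2 of the 77 lower genes with one.

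Other genes of oxidative and amino acid stress gave few calls with limma. Among 21 genes of NRF2 targets and glutathione, Slc7a11 and Hmox1 were lower and 0 were higher, with a list median of -0.36. Hmox1, which degrades haem, had 95.4, 104, 70.7 and 76.5 normalized counts with NP24 and 399, 144, 281 and 272 with Tβ4, a difference of -1.58 ± 0.29 (limma adjusted p = 0.0404). Nfe2l2, the gene of NRF2 itself and outside that list, had 170 to 221 with NP24 and 396 to 513 with Tβ4, a difference of -1.21 ± 0.17 (adjusted p = 0.0121). Among 27 genes of the unfolded protein and integrated stress responses, 1 was lower: Phgdh, the first enzyme of serine synthesis, by 0.95 ± 0.18 (adjusted p = 0.0404). Psat1, the next enzyme of that route, differed by -0.74 (adjusted p = 0.097) and the pseudokinase gene Trib3 by -1.24 (adjusted p = 0.103). The medians of these lists were -0.33 for the stress response and -0.30 for 12 amino acid carriers, of which Slc7a11 alone was called and Slc1a5, a glutamine carrier, differed by -0.97 (adjusted p = 0.143). In the fit without Tβ4 library 2, 9 of the NRF2 list and 7 of the stress list were lower, and in that without Tβ4 library 1, 1 and 0. DESeq2 on all 8 libraries called 3 of the NRF2 list and 5 of the stress list lower, and 0 higher.

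A few targets of SRF were lower with NP24. Of 18 SRF and MRTF targets, 3 were lower, Acta2, Ccn2 and Ccn1, and 0 higher, with a list median of -0.58. Ccn1, a matrix protein that binds integrins, had 67.6, 81.0, 56.8 and 90.7 normalized counts with NP24 and 374, 176, 327 and 284 with Tβ4. The lowest Tβ4 library, library 2, was still above the highest NP24 library. The difference was -1.93 ± 0.27 (limma adjusted p = 0.0121), and the call held in 5 of 8 fits with a library left out. Ccn2, its relative, had 19.5, 42.6, 20.9 and 4.45 with NP24 and 408, 128, 248 and 243 with Tβ4 (difference -3.72 ± 0.55, adjusted p = 0.0153). Gm15270, also called lower, covers 51.4% of the Ccn2 gene body on the opposite strand, so the reads of these genes cannot be told apart. Acta2, the smooth muscle actin, stood at 46.3 in NP24 library 1 and at 5.80 to 7.46 in NP24 libraries 2 to 4, against 128 to 306 with Tβ4 (difference -3.99 ± 0.57, adjusted p = 0.0122). Myl9, a myosin light chain, differed by -3.03 (adjusted p = 0.0767). This list had 6 members lower without Tβ4 library 2 and 0 without Tβ4 library 1. DESeq2 called 7 of the 18 lower and 0 higher. Acta2 and the Ccn genes are also expressed by vessel wall cells and fibroblasts, whose markers Rgs5 (-3.42), Pdgfrb (-1.83), Col1a1 (-3.84) and Col3a1 (-4.68) were lower too, and the part of those cells was not tested. Fewer cells of a type and less RNA per cell cannot be told apart in RNA of a whole culture, here and for the other genes.

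Wwtr1, the gene of the TAZ coactivator that joins TEAD factors on DNA, was called in 7 of 8 fits with a library left out. It had 260, 268, 252 and 273 normalized counts with NP24 and 724, 618, 524 and 584 with Tβ4. Neither group varied by as much as the gap between them. The difference was -1.21 ± 0.15 (limma adjusted p = 0.00577). Of 6 tested genes of YAP, TAZ and the TEAD factors, a family picked after its values were seen, all 6 differences were negative and 2 were called; Tead2 differed by -1.18 (adjusted p = 0.0415), Yap1 by -0.66 (adjusted p = 0.11) and Tead1 by -0.29 (adjusted p = 0.513).

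The promoter of Ccn1 is shown because a TEAD site lies in it. The window is chr3:145649986-145650235 (minus strand, RefSeq, GRCm38.p6). Capitals mark the TEAD site at -103 to -98 and an antioxidant response element core at -62 to -54, both on the strand opposite to the gene, the latter with the CRE core TGACG inside it.
Ccn1: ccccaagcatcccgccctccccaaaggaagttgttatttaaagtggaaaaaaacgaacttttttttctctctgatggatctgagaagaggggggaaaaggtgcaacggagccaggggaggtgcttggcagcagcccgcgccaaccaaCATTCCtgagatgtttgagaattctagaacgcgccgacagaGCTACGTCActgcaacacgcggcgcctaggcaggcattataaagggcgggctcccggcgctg
The TEAD letters lie in 14.4% of the 27018 genes with a window and in 16 of the 77 lower genes with one (20.8%). The core TGACNNNGC lies in 11.5% of those genes and likewise in 16 of the 77. The CArG box, the site of SRF, and the AP-1 site TGANTCA were also searched and had no match in the Ccn1 window. The CArG box lies in 1.62% of the genes with a window and in 2 of the 77 (2.6%). For the AP-1 site the shares are 7.82% and 4 of the 77 (5.19%).

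Some genes of the fibrous extracellular matrix were lower with NP24. Col3a1, the chain of type III collagen of vessel walls and meninges, had 16.7, 11.7, 3.48 and 6.23 normalized counts in NP24 libraries 1 to 4 and 467, 116, 266 and 218 in Tβ4 libraries 1 to 4. All NP24 libraries were near the filter's minimum, and Tβ4 library 2 was the lowest of its group. The difference was -4.68 ± 0.51 (SE, 95% interval -5.79 to -3.58, limma adjusted p = 0.00283), and the controls lay between at 94.5 ± 35.9 (SD, n = 4).

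Col3a1 was 1 of 6 called genes among 13 tested of a list of 15 for fibroblasts and meninges, all 6 lower with NP24, with a median of -1.66. Col1a1 and Col1a2, the chains of type I collagen, differed by -3.84 ± 0.55 (adjusted p = 0.0123) and -3.08 ± 0.52 (adjusted p = 0.0283). Bgn, the proteoglycan biglycan, stood at 8.34 to 44.8 normalized counts with NP24 and at 210 to 969 with Tβ4. Fn1, fibronectin, was far more abundant and its gap smaller: 1117, 1126, 1046 and 941 with NP24 against 2267, 1777, 1963 and 2183 with Tβ4, a difference of -0.95 ± 0.12 (limma adjusted p = 0.0097). Aebp1, a collagen-binding protein, differed by -2.11 (adjusted p = 0.0457). The summed level of the list was 2866 to 3228 with NP24, 4223 to 8081 with Tβ4 and 3725 to 4811 in the controls. There were 9 members lower without Tβ4 library 2 and 1 without Tβ4 library 1.

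Collagens as a family, taken after their values were seen, gave 8 called chains of 42 tested, all 8 lower, with a median of -0.99 and 38 negative differences. Beside types I and III the called chains were Col4a1 of basement membranes (-1.04, adjusted p = 0.0215), Col5a2 (-1.58, adjusted p = 0.0475), Col6a3 (-2.70, adjusted p = 0.0495), Col12a1 (-1.38, adjusted p = 0.0153) and Col27a1 (-1.15, adjusted p = 0.0475). Some chains, such as Col8a1 (2.78 to 11.7 with NP24) and Col10a1 (2.67 to 10.4), passed the filter largely through their Tβ4 levels. That favours a negative difference. For Col22a1 and Col24a1, Tβ4 library 1 stood at 280 and 267. The rest of its group had 30.3 to 74.5 and 2.37 to 20.7. Family counts with a library left out were not made. Of 10 laminin chains, Lama5 of basement membranes was called, at 146 to 309 normalized counts with NP24 and 428 to 596 with Tβ4. Tgfb2, the TGF-β ligand, differed by -0.81 (adjusted p = 0.0467) and Itgav, the integrin subunit that takes part in activating TGF-β, by -0.88 (adjusted p = 0.0369). Itih5, a hyaluronan-binding protein, had 1.07 to 15.1 with NP24 and 59.3 to 172 with Tβ4 (adjusted p = 0.0404).

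The pericyte genes Rgs5 and Pdgfrb were lower as well. Rgs5, a regulator of G protein signalling that marks pericytes, had 50.03, 27.7, 23.2 and 64.0 normalized counts with NP24 and 478, 242, 539 and 485 with Tβ4. Tβ4 library 2 was again the lowest of its group and still above every NP24 library. The difference was -3.42 ± 0.35 (SE, 95% interval -4.19 to -2.66, limma adjusted p = 0.00197). Igfbp7, a secreted protein of vessel walls that binds insulin-like growth factors, had 22.2, 14.9, 15.1 and 23.1 with NP24 and 335, 151, 132 and 132 with Tβ4. Its difference was -3.16 ± 0.37 (adjusted p = 0.00439), with Tβ4 library 1 standing above the others. Pdgfrb, the receptor that recruits pericytes to vessels, differed by -1.83 ± 0.28 (adjusted p = 0.0159).

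Of 14 genes for endothelium and pericytes, 10 were tested, and Rgs5 and Pdgfrb were lower and 0 higher. The endothelial adhesion gene Pecam1 had 33.4 to 86.3 normalized counts with NP24 and 25.5 to 122 with Tβ4, groups that overlapped, with a difference of -0.04 (adjusted p = 0.987). The list's median was -1.38 over these 10 genes. Without Tβ4 library 1 it was -0.51 over the 9 genes then tested, with 1 member lower. Its summed level was 872 to 1000 with NP24, 1508 to 3114 with Tβ4 and 1018 to 1597 in the controls.

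Several genes of macrophages and microglia were lower with NP24, and 15 of the 16 tested differences in their list were negative. The microglial markers Cx3cr1 and P2ry12, whose counts may hold reads of overlapping genes, had differences near 0. Of 18 listed microglia and macrophage genes, 16 were tested, 5 were lower (Laptm5, Lyz2, Ctss, C1qc and Gpnmb) and 0 higher. C1qc is 1 of the 9 lower genes that passed the filter through their Tβ4 levels alone. Ctss, the lysosomal protease cathepsin S, had 15.7, 15.99, 24.3 and 14.2 normalized counts with NP24 and 246, 56.8, 117 and 136 with Tβ4. Tβ4 library 1 was highest and library 2 lowest, and the difference was -2.76 ± 0.44 (limma adjusted p = 0.0211). Laptm5, a lysosomal membrane protein of blood-derived cells, differed by -3.52 ± 0.51 (adjusted p = 0.0127), and Lyz2, lysozyme, by -2.78 ± 0.49 (adjusted p = 0.0346). Gpnmb, a glycoprotein of phagocytes, had 34.3, 52.2, 83.5 and 42.7 with NP24 and 723, 157, 279 and 261 with Tβ4 (difference -2.56 ± 0.41, adjusted p = 0.0226), while the controls, at 462 ± 110 (SD, n = 4), stood above both groups' means. Of the complement C1q genes, C1qc was called (-3.34, adjusted p = 0.0293), and C1qa (-4.10, adjusted p = 0.058) and C1qb (-2.26, adjusted p = 0.0672) were not. With NP24, C1qc stood at 2.13 to 8.89 and C1qa at 0 to 8.12 normalized counts, all below the minimum of 10, and both entered the test only because of their level with Tβ4.

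Further called genes known from macrophages were C3ar1, the C3a receptor (-2.97, adjusted p = 0.0283), Myo1f, a myosin of leukocytes (-2.81, adjusted p = 0.0208), Arhgap25 (-3.57, adjusted p = 0.0404), Adgre1, which encodes F4/80 (-2.74, adjusted p = 0.0475), and Cybb of the phagocyte oxidase (-2.63, adjusted p = 0.0475). Csf1, a growth factor that microglia need, was lower with NP24 too, at 155 to 179 against 280.5 to 425 normalized counts (-1.16, adjusted p = 0.0206). Its receptor gene Csf1r had 54.4 to 82.3 with NP24 and 112 to 219 with Tβ4 (-0.98, adjusted p = 0.153). Cx3cr1 had 1303 to 1383 with NP24 and 1249 to 1493 with Tβ4 (-0.04, adjusted p = 0.926), and P2ry12 had 268 to 336 and 214 to 500 (0.02, adjusted p = 0.988). The P2ry12 gene body lies wholly inside Med12l and that of Cx3cr1 overlaps Wdr48 in 15.2% of its length, so their counts may hold reads of those genes. The list's summed level, with Cx3cr1 in it, was 2211 to 2458 with NP24, 2995 to 6046 with Tβ4 and 3352 to 3922 in the controls. The list median was -2.55 over 16 tested genes, among them C1qc and C1qa, which entered the test only through their Tβ4 levels. A median without such members was not computed. Without Tβ4 library 1 the median was -2.02 over the 14 genes then tested, with 0 members called, and without Tβ4 library 2 there were 10 lower of 14.

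**Figure D4:**
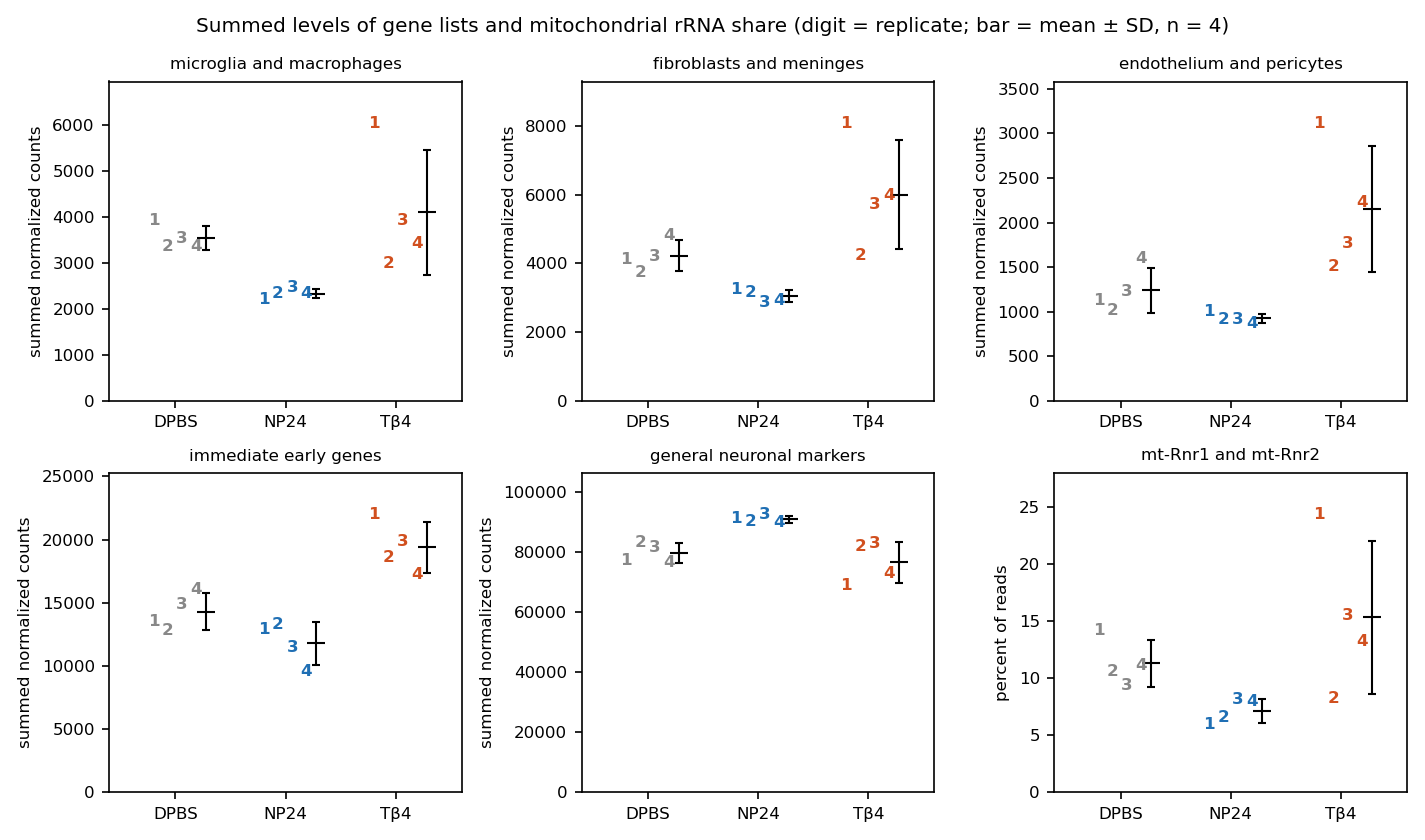
Summed normalized counts of 5 gene lists and the percent of reads from mt-Rnr1 and mt-Rnr2 (vertical, linear from 0) in each DPBS, NP24 and Tβ4 library; digits are replicate numbers and bars are mean ± SD (n = 4). In all 6 panels the NP24 libraries lie on 1 side of the Tβ4 libraries, and Tβ4 library 1 is the highest in 5 panels and the lowest in general neuronal markers.

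Glial and progenitor lists had smaller differences and few calls with limma. Limma and edgeR called 0 of 15 astrocyte genes and 0 of 15 oligodendrocyte lineage genes, with medians of -0.24 and -0.22. At an unadjusted limma p under 0.05, 4 genes of each list were lower, and DESeq2 called 1 and 0. Gja1, the astrocyte connexin, had 351 to 432 normalized counts with NP24 and 928, 335, 719 and 769 with Tβ4 (-0.77, adjusted p = 0.226). Tβ4 library 2 lay below the NP24 range and the other Tβ4 libraries above it. Aqp4, the astrocyte water channel, went the other way, at 330 to 458 with NP24 and 210 to 406 with Tβ4 (0.33, adjusted p = 0.591). Olig2, the lineage factor of oligodendrocytes, differed by -0.58 (adjusted p = 0.175) and Mbp by -0.45 (adjusted p = 0.183). Of 13 genes of radial glia and progenitors 1 was lower, Tnc, the matrix protein tenascin-C, with 2743 to 3063 against 4062 to 4838 normalized counts (-0.59 ± 0.11, limma adjusted p = 0.0475, and 0.0576 with edgeR, which called 0 of the list). The called noncoding gene 8030451A03Rik overlaps 77.0% of Tnc on the opposite strand. Pax6, a progenitor factor, differed by -0.67 (adjusted p = 0.0788). DESeq2 called 5 of the 13 progenitor genes lower and 0 higher. Leaving out Tβ4 library 2 gave 6 lower astrocyte, 3 lower oligodendrocyte lineage and 6 lower progenitor genes, with medians of -0.50, -0.42 and -0.55, and leaving out Tβ4 library 1 gave 0 in each list.

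All 18 cell cycle genes had negative differences, with a median of -0.51. Limma and edgeR called 0 of them and DESeq2 1, and 6 were lower at an unadjusted limma p under 0.05. Mki67, the proliferation marker, had 1904 to 2242 normalized counts with NP24 and 2581 to 3244 with Tβ4 (-0.50, adjusted p = 0.0892). Cdkn1a, the p53 target that encodes the cell cycle inhibitor p21, was lower with NP24, at 221 to 254 against 685, 353, 592 and 528 (-1.11 ± 0.20, limma adjusted p = 0.0346). It was the 1 called gene among 25 of apoptosis and p53, whose median was -0.34. Gli3, the repressor of Hedgehog signalling in progenitors, differed by -1.05 (adjusted p = 0.0326) and Celsr1, a cadherin of planar polarity, by -0.999 (adjusted p = 0.0159). Of 18 Wnt genes tested, limma and edgeR called 0 and DESeq2 1 in each direction, and at an unadjusted limma p under 0.05, 5 were lower and 1 higher. Wnt7b had 793 to 1016 with NP24 and 460 to 677 with Tβ4 (0.72, adjusted p = 0.0566).

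Ajap1, which encodes a membrane protein of adherens junctions, had the largest difference of the 11 higher genes. It had 1391, 1103, 1170 and 1452 normalized counts with NP24 and 408, 688, 449 and 431 with Tβ4. Tβ4 library 2 stood nearest to the NP24 libraries without reaching them. The difference was 1.39 ± 0.18 (SE, 95% interval 1.02 to 1.77, limma adjusted p = 0.0067), or 2.63-fold, and the controls lay between at 671 ± 71.1 (SD, n = 4). Dclk3, a kinase of the doublecortin-like family, had 359, 410.4, 312 and 354 with NP24 and 154, 98.8, 187 and 140 with Tβ4 (1.33 ± 0.21, adjusted p = 0.0214). Its NP24 libraries all exceeded the highest Tβ4 library, library 3.

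Among the other higher genes, Rims4 (0.68, adjusted p = 0.0431) and Rph3a (0.67, adjusted p = 0.0485) encode proteins of vesicle release at the presynaptic terminal. Prss12 encodes neurotrypsin, a synaptic protease, and had 368 to 486 normalized counts with NP24 and 224 to 244 with Tβ4 (0.88, adjusted p = 0.0301). Jakmip1, which encodes a neuronal protein that binds microtubules, and the gene model Gm1043 overlap on the same strand and were both called, Jakmip1 by 0.78 (adjusted p = 0.0266). Pgbd5, a domesticated transposase gene expressed in neurons, differed by 0.79 (adjusted p = 0.0369). Sla and Tg were called at 1.12 and 1.06 (adjusted p = 0.0116 and 0.0122), but Sla lies wholly inside the Tg gene body on the opposite strand and their counts ran in parallel, at 1160 to 1516 and 1220 to 1563 with NP24. They count as 1 signal here. These calls were not stable to the Tβ4 libraries: without library 1, and without library 4, limma called 0 higher genes.

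Maf, a transcription factor of cortical interneurons, was the 1 gene called higher among 15 tested of 17 interneuron genes. It had 1541, 1392, 1155 and 1131 normalized counts with NP24 and 665, 760, 766 and 512 with Tβ4. The groups stood well apart, and the difference was 0.95 ± 0.16 (limma adjusted p = 0.0283). Lhx6, a factor upstream in the same cells, had 842 to 1071 with NP24 and 454 to 716 with Tβ4 (0.82, adjusted p = 0.0512). Reln, the secreted guidance protein reelin, stood at 4529 to 5013 with NP24 and at 2725, 4452, 2704 and 2547 with Tβ4 (0.64, adjusted p = 0.111). The list's median was 0.30, with 11 of 15 positive. Leaving out Tβ4 library 2 gave 5 higher members, and leaving out Tβ4 library 1 gave 0.

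Lists of neuronal and synaptic genes had positive medians with almost no call. In general neuronal markers, 13 of 13 differences were positive (median 0.17), in presynaptic release 22 of 23 (0.30), in glutamate and GABA receptors and scaffolds 20 of 24 (0.24), in voltage-gated channels 15 of 18 (0.20), in cortical projection neurons 12 of 17 (0.21) and in axon growth and guidance 22 of 32 (0.17). Limma and edgeR called 0 genes in all 6 lists. At an unadjusted limma p under 0.05, in the order given, 3, 10, 5, 2, 5 and 8 were higher and 0, 0, 0, 0, 2 and 1 lower, and DESeq2 called 0, 2, 4, 0, 2 and 2 higher and 1 lower, in the last list. Syn1, which tethers synaptic vesicles, had 3289 to 3411 normalized counts with NP24 and 2055 to 2908 with Tβ4 (0.52, adjusted p = 0.101), and Sv2a, a vesicle glycoprotein, differed by 0.59 (adjusted p = 0.124). Grin1, the obligate NMDA receptor subunit, stood at 2159 to 2308 and 1630 to 1772 (0.41, adjusted p = 0.111). Camk2a, a kinase of the postsynaptic density, differed by 0.47 (adjusted p = 0.144) and Bcl11b, a factor of subcortical projection neurons, by 0.55 (adjusted p = 0.0788). Mef2c, an activity-dependent factor, had 15954 to 17896 with NP24 and 8391, 15255, 11419 and 9560 with Tβ4 (0.64, adjusted p = 0.162), with Tβ4 library 2 close to the NP24 cultures. Snap25 had 2586 to 3646 and 2617 to 3979, which overlapped. Without Tβ4 library 2, 11 receptor, 8 channel and 6 presynaptic genes were higher, and without Tβ4 library 1, 0 in each. The receptor median was 0.43 without library 2 and 0.12 without library 1, that of channels 0.41 and 0.12, and that of axon growth 0.28 without library 2. Scaling to library size put the receptor and channel medians at 0.38 and 0.35, and raised the median of all genes tested to 0.148. The summed neuronal markers were 89822 to 92554 with NP24, 68950 to 82919 with Tβ4 and 76583 to 83415 in the controls. They were highest where the summed fibroblast, pericyte and microglia genes were lowest, in the NP24 libraries, and the part of those cells in these differences was not tested.

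**Figure D5:**
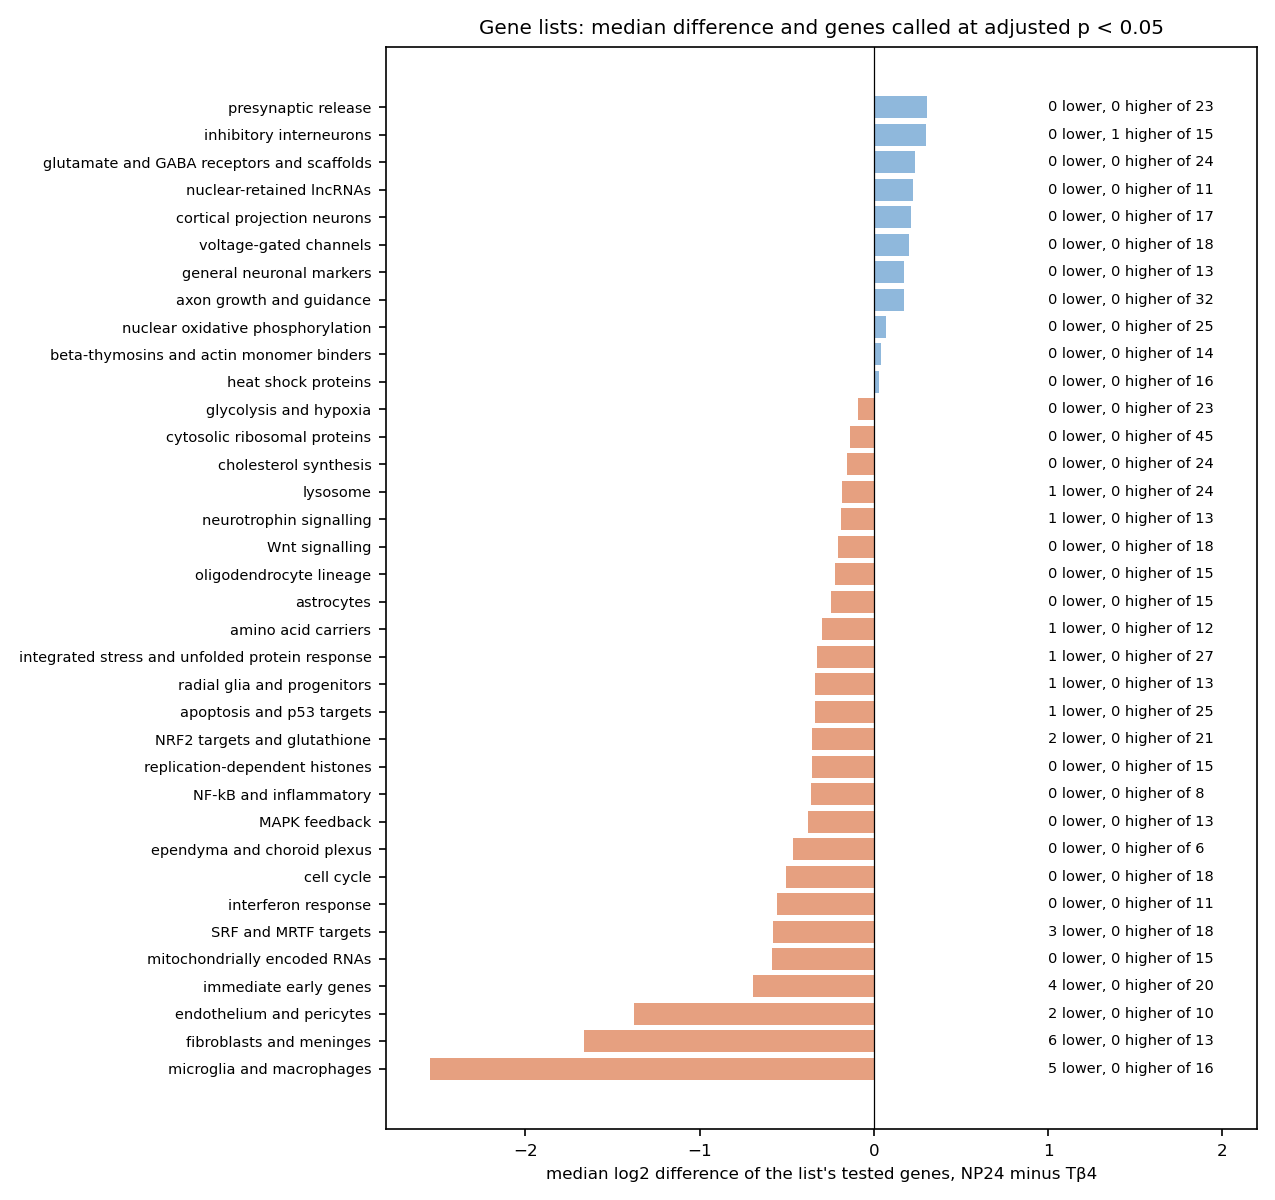
Bars show the median log2 difference, NP24 minus Tβ4, of the tested genes of each list with 5 or more tested genes (horizontal), with the numbers called lower and higher by limma at adjusted p under 0.05 beside them. The lists of microglia, fibroblasts, and endothelium with pericytes have the lowest medians, from -2.55 to -1.38, and neuronal lists lie between 0.17 and 0.30.

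Tmsb4x, the gene that encodes Tβ4, did not stand out. It had 3485, 3603, 3507 and 2519 normalized counts with NP24 and 4446, 1740, 4384 and 3059 with Tβ4. The groups overlapped, with the highest and the lowest level both in the Tβ4 group, and the difference was 0.02 (95% interval -0.53 to 0.57, limma adjusted p = 0.985). Tmsb10, the gene of Tβ10, differed by 0.23 (95% interval -0.43 to 0.88, adjusted p = 0.825). Of 14 tested genes of β-thymosins and other actin monomer binders, limma, edgeR and DESeq2 each called 0, and 0 had an unadjusted limma p under 0.05, with a median of 0.04.

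The 15 mitochondrially encoded RNAs all had negative differences, with a median of -0.58. Limma and edgeR called 0 of them and DESeq2 3, and 5 were lower at an unadjusted limma p under 0.05. mt-Co3, a subunit of cytochrome oxidase, had 71.3, 61.8, 96.2 and 108.5 normalized counts with NP24 and 426, 129, 194.5 and 184.5 with Tβ4 (-1.35, adjusted p = 0.102), and Tβ4 library 1 stood above the rest. mt-Rnr1 differed by -1.12 (adjusted p = 0.606) and mt-Rnr2 by -1.16 (adjusted p = 0.674). Nuclear genes of oxidative phosphorylation, 25 of them, had a median of 0.07 and 16 heat shock genes one of 0.03. Limma and edgeR called 0 in both, DESeq2 called 0 and 1, and 0 and 4 had an unadjusted limma p under 0.05. Both medians turned negative, at -0.11 and -0.20, without Tβ4 library 2, as did that of the actin monomer binders, at -0.13. Limma called 0 of 24 cholesterol synthesis genes (median -0.15), 0 of 23 glycolysis and hypoxia genes (-0.09) and 0 of 45 cytosolic ribosomal protein genes (-0.14), as did edgeR. DESeq2 called 2, 5 and 0, and 6, 6 and 0 had an unadjusted limma p under 0.05. Without Tβ4 library 2, 5, 4 and 8 were lower, with medians of -0.29, -0.21 (22 tested) and -0.44, and without Tβ4 library 1 the ribosomal median was -0.03. Scaling to library size put the medians of the last pair at 0.05 and 0.01, but it moved the median of all genes tested from 0.01 to 0.148. Both lists thus stayed below the median of all genes. Msmo1, a sterol oxidase, differed by -0.52 (adjusted p = 0.103) and Vegfa, the vessel growth factor, by -0.68 (adjusted p = 0.0839). Bag3, a chaperone partner, differed by -1.13 (adjusted p = 0.0566), the lysosomal membrane gene Lamp2 by -0.61 (adjusted p = 0.055) and the class I gene H2-K1 by -1.92 (adjusted p = 0.0568). Among 24 lysosomal genes Gpnmb alone was called, with a list median of -0.18, and of 11 tested interferon genes limma and edgeR called 0 and DESeq2 2, with 5 lower at an unadjusted limma p under 0.05 and a median of -0.56. The remaining lists gave 0 calls with limma, edgeR and DESeq2: 15 replication-dependent histones (median -0.36, 2 at an unadjusted limma p under 0.05), 8 inflammatory genes (-0.36, 1), 6 genes of ependyma and choroid plexus (-0.47, 1), 11 nuclear-retained lncRNAs (0.22, 0) and the 1 tested gene of red blood cells (-0.02, 0). Without Tβ4 library 2, 3 histone genes were lower, with a median of -0.60, and 2 of the lncRNAs were higher.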

How the data were processed

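Total RNA of the cultures was purified on RNeasy Micro columns and sequenced from libraries of a SMARTer Stranded Total RNA-Seq kit, per the labels' protocols. Per the submitters' processing notes, FastQC, HISAT or HISAT2, featureCounts and DESeq2 were used with GRCm38; versions, annotation and strand setting are not given in the sources used here. The deposited values are signal, that is read counts of 45724 genes which the authors scaled by a size factor, 1 for each library. At a tolerance of 0.01 reads, 99.95% to 99.99% of values per library were whole reads, and 1 read was worth 0.690 to 1.22 normalized counts. Counts of any 2 libraries of 1 group differed beyond sampling noise (chi-square over its degrees of freedom 12.3 or more), so each library was counted once.

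NP24 and Tβ4 libraries, 4 each, were compared with limma 3.58.1 (R 4.3.3, trend) after adding a pseudocount of 1 and taking log2. A gene was tested if 4 or more of the 8 libraries held 10 normalized counts or more, and called at a Benjamini-Hochberg adjusted p under 0.05. The recovered reads were also fitted with edgeR 4.0.16 and DESeq2 1.42.0. Further alternatives were other scalings, filters and pseudocounts, the spread of all 16 libraries, array weights, a replicate block and leaving out each library; leaving out Tβ4 libraries 1 and 2 together was added after the data were seen. The fit was tested on simulated data.

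The 8 libraries, the gene lists and the families were chosen with earlier results of these data known. Genes named were, per direction, up to 15 with the largest difference among called genes with a mean of at least 50 normalized counts, groups that did not overlap and a proper symbol, up to 4 of each list by p, and the thymosin, mitochondrial rRNA and cell type markers. Wwtr1, Nfe2l2, Csf1, Gli3, Celsr1, Tgfb2, Itgav, Adgre1, Cybb and the family members were named after their values were seen. One gene that the rule names is not reported here.

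Positions and overlaps come from GENCODE M21 gene bodies (GRCm38), in which 45596 identifiers were found. A gene nested in another's intron on the opposite strand, Sla in Tg, had nearly its host's counts, so the counts of overlapping genes are uncertain. Promoter sequences are from RefSeq.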

Additional observations from a re-analysis of the deposited data

Results flagged for a closer look

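In 20 of 210 groups of 4 libraries examined, for the genes named and for 3 library measures, 1 library stood so far from the other 3 that its gap exceeded Dixon's 95% critical value; chance gives about 1 in 20. With Tβ4, library 1 was high for Igfbp7 (335.3 normalized counts against 132 to 151 in the other 3 libraries), Myl9 (102.4 against 49.7 to 53.8), Col5a2 (580.4 against 277 to 313) and Adgre1 (106.1 against 40.9 to 44.8). Tβ4 library 2 was high for Ajap1 (688.1 against 408 to 449), Nr4a3 (7038 against 4685 to 4973), Reln (4452 against 2547 to 2725), Snap25 (3979 against 2617 to 2840) and P2ry12 (499.6 against 214 to 261), and low for Cybb (40.88 against 60.3 to 63.4). Tβ4 library 3 was high for Sla (838.6 against 574.5 to 584) and low for Yap1 (353.1 against 452 to 472).

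With NP24, library 1 was high for Acta2 (46.32 against 5.80 to 7.46) and Pax6 (655 against 480.0 to 505), and low for Tg (1220 against 1518 to 1563) and Cx3cr1 (1303 against 1379.7 to 1383). NP24 library 2 was high for Camk2a (1574 against 1187 to 1241). NP24 library 4 was high for Laptm5 (19.57 against 5.80 to 7.46) and Gli3 (901.8 against 695 to 720) and low for Tmsb4x (2519 against 3485 to 3603).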

How the results depend on the processing

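The counts of called genes, 11 higher and 98 lower, ranged with a library left out from 0 to 562 higher and from 5 to 599 lower, with the lowest values without Tβ4 library 4 and, for higher genes, also without Tβ4 library 1, and the highest without Tβ4 library 2. Without Tβ4 libraries 1 and 2 together, an alternative chosen after seeing the data, 231 were higher and 156 lower, 68 of them among the 109. DESeq2 called 134 higher and 581 lower, the spread of all 16 libraries 112 and 390, and array quality weights 514 and 782; each held all 109. Scaling to library size called 31 higher and 74 lower, so that 29.5% of calls were higher and not 10.1%, and it moved the median of all genes to 0.148. A pseudocount of 0.1 left 64 lower, a mean of at least 50 left 63 lower, and a difference over 1 left 4 higher and 77 lower. The other settings (edgeR, TMM, library size without mitochondrially encoded genes, a pseudocount of 10, no filter) gave 8 to 15 higher and 83 to 108 lower. With the replicate number as a block, 0 were higher and 9 lower. Same-numbered libraries did not deviate together (r from -0.215 to -0.052), and unlike-numbered libraries had r from -0.209 to 0.233. Whether same-numbered libraries shared a culture or a preparation is not stated in the labels, and these correlations cannot tell. Where a count fell with a library left out, fewer samples were in the fit; the cause of the other shifts was not tested.

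Of the 57 called genes named, 49 kept their call with edgeR, 57 with DESeq2, 50 with library-size scaling and 44 at a pseudocount of 0.1, against 6 of 56 tested without Tβ4 library 1 and 5 of 56 without Tβ4 library 4. The 8 that edgeR did not call, Rph3a, Nr4a3, Bdnf, Tnc, Col5a2, Col6a3, Adgre1 and Cybb, had edgeR adjusted p-values of 0.0576 to 0.0599. The mitochondrial rRNA difference was -8.16 percentage points and ranged from -10.51 to -5.16 with a library left out. Its exact permutation p was 0.0571 in each case without an NP24 library and 0.0286 in each without a Tβ4 library.

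Genes near 0 changed sign. Tmsb4x was at -0.062 with edgeR, -0.056 with DESeq2, -0.0075 with array weights, -0.17 without Tβ4 libraries 1 and 2, and -0.27 to 0.18 with 1 library left out. Such left-out ranges were -0.11 to 0.41 for Tmsb10, -0.056 to 0.16 for Snap25, -0.13 to 0.28 for P2ry12 and -0.47 to 0.27 for Pecam1. Library-size scaling put Cx3cr1 and Pecam1 at 0.10, edgeR and DESeq2 put P2ry12 at -0.053, and leaving out Tβ4 libraries 1 and 2 put Aqp4 at -0.037 and Pecam1 at 0.47. Depth limits genes such as Tmem119 and Cldn5, which with 21 and 6 reads over the Tβ4 libraries were not tested.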

Other observations

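The Tβ10 libraries entered no test here. Their levels beside those with NP24 and Tβ4, as mean ± SD over 4 libraries, were 618 ± 181 normalized counts for Egr1 (662 ± 212 with NP24, 2246 ± 624 with Tβ4), 10.3 ± 8.73 for Col3a1 (9.53 ± 5.87 and 267 ± 148), 30.1 ± 16.3 for Rgs5 (41.2 ± 19.2 and 436 ± 132), 444 ± 83.8 for Slc7a11 (372 ± 23.3 and 1150.3 ± 250.9), 1167 ± 174 for Ajap1 (1279 ± 169 and 494 ± 130) and 359 ± 24.5 for Dclk3 (359 ± 40.3 and 145 ± 36.5). For each of these 6 genes the Tβ10 mean was nearer to the NP24 mean than to the Tβ4 mean. The 6 were picked, by no stated rule, from genes called between NP24 and Tβ4. The same share over all called genes, or over all genes tested, is not given here. Whether the Tβ10 cultures resembled either group more widely therefore cannot be read from these 6 genes.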
